A study of Mus musculus with 8 samples.

Results

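The Krüppel-like factor genes Klf2, Klf3, Klf4, Klf5, Klf9, Klf10 and Klf13 were followed across 3 lines of mouse induced pluripotent stem (iPS) cells and 1 line of mouse embryonic stem (ES) cells. The 7 genes were chosen by symbol, as a family named in pluripotent cells, with earlier results of these data known. All 7 had probe sets on the Affymetrix array. They were represented by 24 of the 34945 probe sets whose annotation gave a single gene symbol, and were 7 of the 18193 genes so named. All 7 genes, through 22 of the 24 probe sets, passed the filter on low signals and were among 14004 genes tested. The groups were iPS line 1, iPS line 2 and iPS line 3, each named integration-free in the labels, and the ES control line, with 2 arrays each. All 4 lines were of C57BL/6 strain and male, were taken between passage 7 and passage 10, and were grown in N2B27 medium with mouse LIF, the cytokine that sustains mouse ES cells. Neither the labels nor the series text used here name the reprogramming factors, the cell of origin or whether a line is 1 clone. The titles call the 2 arrays of a line biological replicates without naming separate cultures, so p-values measure the spread between arrays, which may be technical.

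Krüppel-like factors are zinc finger transcription factors that share a C-terminal DNA-binding domain and recognise GC-rich and CACCC-type sites. In mouse ES cells Klf2, Klf4 and Klf5 act as overlapping activators of the self-renewal network: LIF acting through Stat3 induces Klf4, and Klf4 is one of the classical reprogramming factors. The other members of this group are known mainly in other settings. Klf3 is a repressor that recruits the CtBP corepressors, Klf9 is induced by glucocorticoid and thyroid hormones, Klf10 is a TGF-beta inducible early gene, and Klf9, Klf10 and Klf13 can repress through the Sin3 complex.

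Because these proteins bind GC-rich and CACCC-type elements and act on each other's genes, the promoters of Klf4, Klf3 and Klf2 are shown. The first 2 are of members that differed between lines. The last is that of the Klf4 partner Klf2, not called in any of the 7 contrasts with signals as deposited. Each is the 250 bases before the annotated RefSeq start in build GRCm38.p6, written 5′ to 3′ in the direction of the gene. Klf4 lies at chr4:55532476-55532725 on the minus strand, Klf3 at chr5:64803271-64803520 on the plus strand and Klf2 at chr8:72318812-72319061 on the plus strand. Capitals mark the letters CACCC or GGGCGG on either strand, which overlap or abut in places.
Klf4: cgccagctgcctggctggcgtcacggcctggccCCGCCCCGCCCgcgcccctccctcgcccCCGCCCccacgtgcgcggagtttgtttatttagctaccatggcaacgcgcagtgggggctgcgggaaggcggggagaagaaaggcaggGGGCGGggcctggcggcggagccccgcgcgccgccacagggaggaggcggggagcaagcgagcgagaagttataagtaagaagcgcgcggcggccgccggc
Klf3: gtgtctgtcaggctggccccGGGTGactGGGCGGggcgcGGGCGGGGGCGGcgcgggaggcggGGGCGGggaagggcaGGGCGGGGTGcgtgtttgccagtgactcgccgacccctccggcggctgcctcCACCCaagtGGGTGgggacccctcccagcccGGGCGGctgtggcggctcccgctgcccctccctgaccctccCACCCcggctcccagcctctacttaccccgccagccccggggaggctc
Klf2: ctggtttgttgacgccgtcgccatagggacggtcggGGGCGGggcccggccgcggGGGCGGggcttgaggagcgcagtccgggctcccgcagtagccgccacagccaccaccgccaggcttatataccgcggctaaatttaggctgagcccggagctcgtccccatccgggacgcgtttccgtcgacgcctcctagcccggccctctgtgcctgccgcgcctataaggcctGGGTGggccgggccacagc
The Klf4 window held GGGCGG 4 times and CACCC 0 times, the Klf3 window 6 and 5 times, and the Klf2 window 2 and 1 times. Over 32851 RefSeq promoters of the same length, 32.7% held GGGCGG and 52% held CACCC at least once on either strand. Those are shares of promoters and not counts per window. The Klf4, Klf3 and Klf2 windows were 74%, 78.4% and 71.2% G or C, against a median of 52.4% over all promoters. The part of this base content in the motif counts was not tested. The Klf4 window also held the E-box CACGTG once, starting 182 bases before the start, which 6.02% of promoters hold. The Stat-type motif TTCNNNGAA was not in the windows of Klf4, Klf3, Klf2 or Klf13, and occurred once in the Klf9 window, against 7.02% of all promoters with a match. Sequences were found for 5 of the 7 genes, and the windows of Klf9 and Klf13 held GGGCGG 0 and 3 times and CACCC 1 and 1 times. The arrays measure RNA and not binding, so these matches describe the letters only.

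Signals are linear MAS5 values, a summary of the probe brightness of each probe set, and all 8 arrays shared a scale, with a trimmed mean of 500.004. The floor used here for low signals was 37.1, and 58% to 61.3% of the probe sets on an array lay above it. All 10 pluripotent cell markers listed, among them Pou5f1, Nanog, Sox2 and Esrrb, exceeded the floor in all 8 arrays. In iPS line 2 against ES cells, 4 of these 10 were lower and 0 higher at a limma adjusted p under 0.05. Of all genes, 10.6% were lower and 16.1% higher. Dppa4 gave 3757 and 3593 in line 2, against 6342 and 6433 in ES cells, and Utf1 gave 702 and 542, against 1164 and 1099. Of 9 measured fibroblast markers, Col1a1, Postn and Dcn were at or under it in every array. The arrays of iPS line 2 stood apart in beta-actin, whose 3' control probe set was 1.74 and 1.79 times as bright as its 5' one, against at most 1.62 times in the other 6 arrays. That ratio reflects how intact the RNA and its labelled copies were. The same ratio for Gapdh did not set line 2 apart, with 0.915 and 0.946 in line 2, against 0.856 to 0.935 in the other 6 arrays. The summed signal of 8 trophoblast markers was also highest there, at 4560.3 to 4998.2, against 2916.6 to 3438.9 in line 1, 2576.1 to 2992.8 in line 3 and 2428.0 to 2445.6 in ES cells. Most of that sum was Tfap2c, with 3056 and 3556 in line 2, against 1694 and 1532.5 in ES cells. Krt7 and Ascl2 were also brighter in line 2 than in ES cells, while Gata3 was dimmer (24.4 and 25.5 in line 2, against 54.3 and 84.0 in ES cells) and Elf5 was under the floor in both. That of the fibroblast markers was 408.48 to 483.93 in line 2, 259.49 to 306.31 in line 1, 277.71 to 294.41 in line 3 and 247.22 to 249.47 in ES cells, and Pdgfrb made up much of the difference (247 and 177 in line 2, against 58.2 and 55.9 in ES cells). The sum of 7 neural markers was lowest in line 2, at 1036.6 to 1082.9, against 1590.3 to 1608.6 in line 1, 1489.4 to 1582.3 in line 3 and 1194.4 to 1218.3 in ES cells. The neural markers did not move alike. In line 2 against ES cells, 1 was higher (16.1% of all genes) and 2 lower (10.6%) at a limma adjusted p under 0.05. Olig2 gave 227 and 227 in line 2, against 409 and 345 in ES cells, while Map2 gave 224 and 232, against 97.0 and 97.7. The part of these differences in the results for line 2 was not tested. In bulk RNA, fewer cells that express a gene and less RNA per cell cannot be told apart.

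The first comparison asks whether the iPS lines, taken as a mean of the 3 lines with equal weight, hold these factors at the level of ES cells. None of the 7 members was called in limma at a Benjamini-Hochberg adjusted p under 0.05, whereas 7.30% of all 14004 genes were (4.27% were higher, 3.03% lower). The median log2 difference of the 7 members was 0.03, beside 0.02 over all genes, and their median size without regard to sign was 0.11, beside 0.16. Before adjustment, 3 members had a p under 0.05, namely Klf4, Klf5 and Klf13. Klf2 stood at 0.03 (95% confidence interval -0.08 to 0.15), Klf9 at 0.03 (-0.06 to 0.12) and Klf3 at 0.0028 (-0.12 to 0.12), so for these 3 genes the interval reached no further than 0.15 log2 units on either side. Klf4 stood at 0.14 (0.04 to 0.25, adjusted p = 0.086 in limma), Klf10 at 0.11 (-0.02 to 0.23), Klf13 at 0.18 (0.0031 to 0.37) and Klf5 at -0.22 (-0.39 to -0.06, adjusted p = 0.105 in limma). Klf5 was also the 1 member of 7 whose 6 iPS arrays did not overlap the 2 ES arrays, which held for 12.9% of all genes. Klf4 passed the test with the mean of both its probe sets (0.19, adjusted p = 0.0214 in limma) and without iPS line 2 replicate 1 (0.16, adjusted p = 0.0464), and Klf5 without iPS line 3 replicate 1 (-0.27, adjusted p = 0.0441). With the mean of its probe sets, Klf5 turned to 0.10 and did not pass. The dimmest of its 3 probe sets, above the floor in only 4 arrays, stood at 0.72 ± 0.49. The other 2 Klf5 probe sets stood at -0.22 ± 0.08 and -0.20 ± 0.09. None of the 3 was called over 25733 probe sets. Without iPS line 2, Klf4 stood at 0.06 and Klf10 at -0.03.

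**Figure D1:**
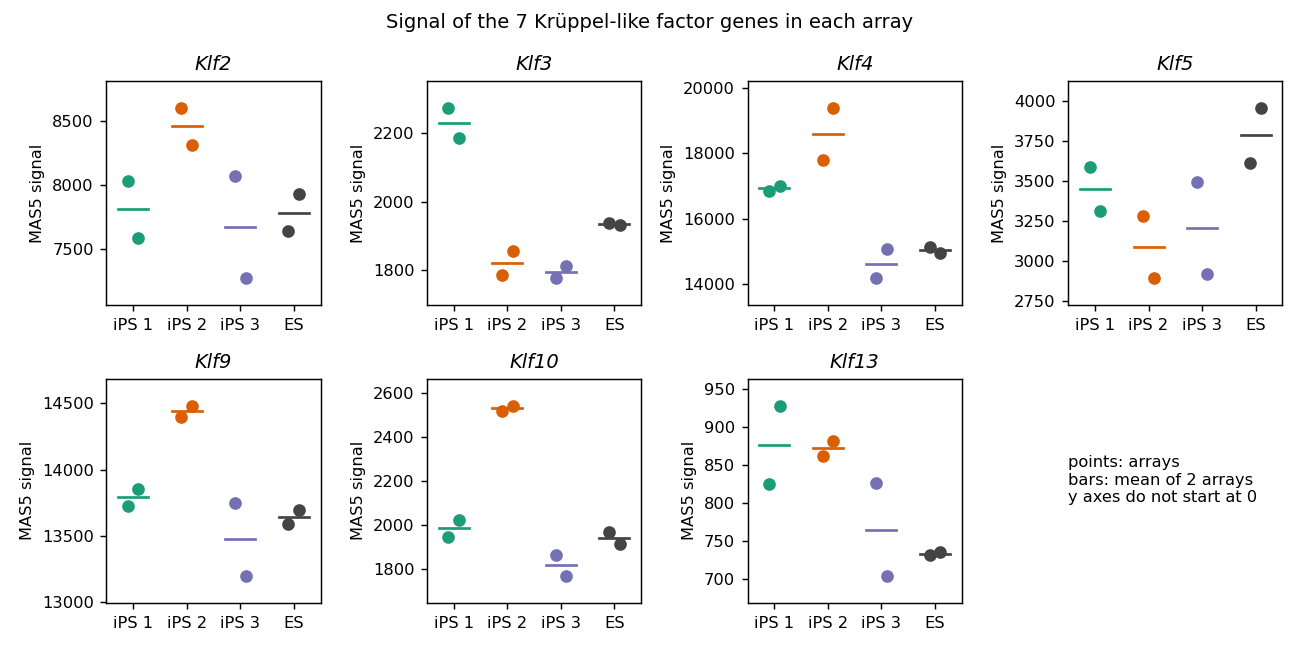
MAS5 signal of the probe set that stands for each of the 7 genes, with 1 point per array and a bar at the mean of 2 arrays, for iPS lines 1, 2 and 3 and ES cells. The y axes are linear and do not start at 0. The highest points of Klf4 and Klf10 are both arrays of iPS line 2, and for Klf5 both ES arrays lie above all 6 iPS arrays.

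In iPS line 2 against ES cells, Klf4 and Klf10 were higher and Klf5 was lower. These 3 of 7 members were called, or 42.9%, while 26.7% of all genes were called in this comparison, so many genes moved in this line. By direction, 2 of 7 members were higher, beside 16.1% of all genes, and 1 was lower, beside 10.6%. All changes were under 1.5-fold on the main probe sets, and the median size of the members' differences was 0.25 log2 units, beside 0.28 over all genes. All 7 members had line 2 arrays that did not overlap the ES arrays, as did 61.4% of all genes.

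Klf4, the activator downstream of LIF and Stat3, had signals of 17806 and 19375 in iPS line 2, against 15127 and 14952 in ES cells. The line 2 arrays lay above both ES arrays. The log2 difference was 0.30 ± 0.06 (SE, n = 2 arrays per line, limma adjusted p = 0.00168), a rise of 1.23-fold. The second Klf4 probe set gave 8564 and 8633 in line 2, against 5948 and 5961 in ES cells. There the rise was 1.44-fold (0.53 ± 0.07, limma adjusted p = 0.000183 over 25733 probe sets, of which 21.3% were called), so both probe sets rose, by different amounts.

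Klf10, the TGF-beta inducible early gene, had the largest difference of the 7 members in this comparison when each gene is read from its brightest probe set. Its only probe set gave 2518 and 2541 in iPS line 2, against 1967 and 1913 in ES cells. All line 2 arrays lay above all others in the series. The log2 difference was 0.38 ± 0.07 (SE, limma adjusted p = 0.0013), a rise of 1.30-fold, and the call held in each of 19 alternatives.

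Klf5, which supports self-renewal together with Klf2 and Klf4, gave 3282 and 2896 in iPS line 2, against 3616 and 3956 in ES cells. The groups did not overlap, although the 2 arrays of a line differed by up to 0.26 log2 units. The gene fell by 0.29 ± 0.09 on the log2 scale (limma adjusted p = 0.0336). The call was lost under quantile normalization (-0.25, adjusted p = 0.0686), without the variance trend (adjusted p = 0.177), without ES replicate 1 (-0.36, adjusted p = 0.0552), without ES replicate 2 (-0.23, adjusted p = 0.211) and without iPS line 2 replicate 2 (-0.20, adjusted p = 0.219). A second Klf5 probe set did not show the difference in this line, with 823 and 1007 in line 2, against 952 and 881 in ES cells (-0.01 ± 0.11). It lay below ES cells in line 1 (-0.29 ± 0.11) and line 3 (-0.30 ± 0.11), neither of which passed.

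The remaining 4 members did not pass the test in iPS line 2. Klf13, a repressor and activator of the same subfamily as Klf9, gave 862 and 882 in line 2, against 731 and 735 in ES cells (0.25 ± 0.10, limma adjusted p = 0.098). Klf2 gave 8600 and 8315 in line 2, against 7639 and 7929 in ES cells (0.12 ± 0.06, limma adjusted p = 0.199). Klf9 gave 14398 and 14481 in line 2, against 13588 and 13698 in ES cells (0.08 ± 0.05, limma adjusted p = 0.27). Klf3 gave 1785 and 1856 in line 2, against 1937 and 1932 in ES cells (-0.09 ± 0.07, limma adjusted p = 0.399). The median of all genes in this line stood at 0.07, and at -0.02 after median centring of the arrays. Centring moved Klf9 to -0.01, while Klf4 (0.22 to 0.42 over 19 alternatives) and Klf10 (0.29 to 0.42) stayed positive.

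**Figure D2:**
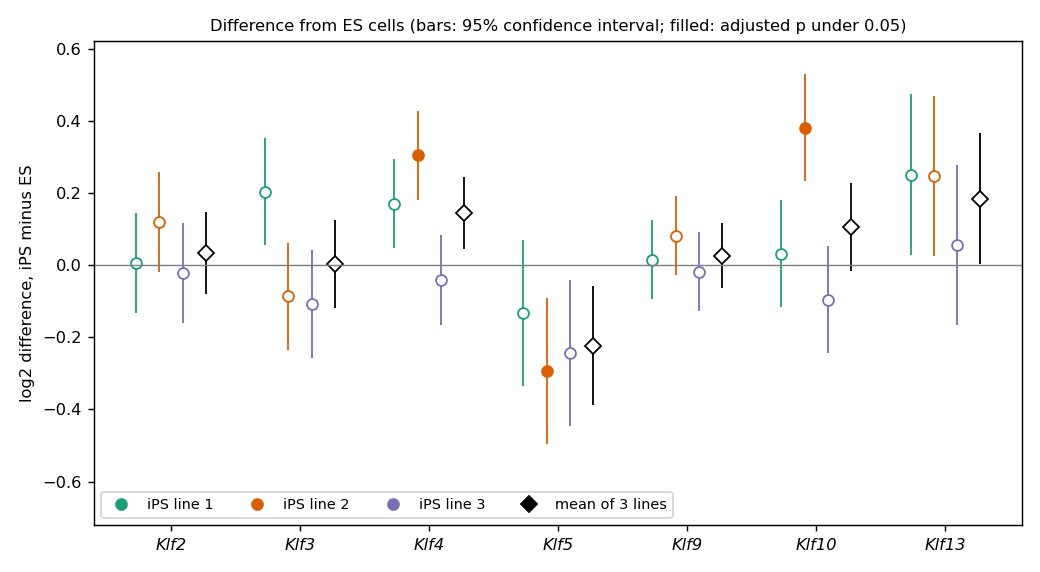
Log2 difference from ES cells of the 7 genes in iPS lines 1, 2 and 3 and in the mean of the 3 lines. Bars are 95% confidence intervals from limma, and filled symbols have an adjusted p under 0.05, which only Klf4, Klf5 and Klf10 in iPS line 2 reach.

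In iPS line 1 against ES cells, 0 of 7 members were called, beside 2.34% of all genes (1.21% were higher, 1.12% lower). Before adjustment, 3 members had a p under 0.05, namely Klf3, Klf4 and Klf13. Klf3 gave 2273 and 2185 in line 1, against 1937 and 1932 in ES cells (0.20 ± 0.07, limma adjusted p = 0.182). Klf4 gave 16847 and 17007 in line 1, against 15127 and 14952 in ES cells (0.17 ± 0.06, limma adjusted p = 0.178). Klf13 gave 825 and 928 in line 1, against 731 and 735 in ES cells (0.25 ± 0.10, limma adjusted p = 0.286). For these 3 genes the line 1 arrays lay above both ES arrays, as they did for Klf9, and below them for Klf5. Groups that did not overlap were thus found for 5 of 7 members, beside 44.4% of all genes.

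In iPS line 3 against ES cells, 0 of 7 members were called, beside 4.16% of all genes (1.59% were higher, 2.57% lower). The median size of the members' differences was 0.06 log2 units, against 0.13 in line 1 and 0.25 in line 2, and it was 0.17 over all genes in line 3. Klf5 gave 3494 and 2919 in line 3, against 3616 and 3956 in ES cells (-0.24 ± 0.09, limma adjusted p = 0.189), and was the 1 member with an unadjusted p under 0.05. Klf4 gave 14183 and 15057 in line 3, against 15127 and 14952 in ES cells (-0.04, 95% confidence interval -0.16 to 0.08). Klf10 gave 1862 and 1768 in line 3, against 1967 and 1913 in ES cells (-0.10, -0.24 to 0.05). The arrays of the 2 groups overlapped for Klf2, Klf4, Klf9 and Klf13, so that 3 of 7 members did not overlap, beside 48.4% of all genes.

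The lines were also compared with each other, which tests whether their differences from ES cells differ. Line 2 stood above line 3 in Klf4 and Klf10, 2 of 7 members beside 31.1% of all genes (19.0% higher and 12.1% lower). Klf10 differed by 0.48 ± 0.07 (1.39-fold, limma adjusted p = 0.000199) and Klf4 by 0.35 ± 0.06 (1.27-fold, limma adjusted p = 0.000545). Line 2 against line 1 again gave 2 of 7 members, beside 23.3% of all genes (13.8% higher and 9.54% lower). Klf10 was higher in line 2 (0.35 ± 0.07, limma adjusted p = 0.00289), a call lost under median centring (0.22, adjusted p = 0.0901). Klf3 was lower in line 2 (-0.29 ± 0.07, limma adjusted p = 0.00851). The Klf3 call was lost with the mean of its probe sets (-0.0081, adjusted p = 0.976), without the variance trend (adjusted p = 0.0526) and without iPS line 1 replicate 1 (-0.26, adjusted p = 0.0593). Line 1 against line 3 gave 1 of 7, Klf3, beside 1.41% of all genes (1.06% higher and 0.350% lower). The difference was 0.31 ± 0.07 (1.24-fold, limma adjusted p = 0.0459). That call was lost under 13 of 19 alternatives, among them leaving out any 1 of the arrays of ES cells, line 1 or line 3 (0.28 to 0.34). The arrays of the 2 lines did not overlap for 5 of 7 members between line 2 and line 3, for 6 between line 2 and line 1 and for 3 between line 1 and line 3, beside 63.4%, 59.8% and 43.8% of all genes.

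The 7 genes thus did not share an order of lines. Klf2, Klf4, Klf9 and Klf10 ran from line 3 at the low end through ES cells and line 1 to line 2. Within that order line 3 and ES cells, and ES cells and line 1, did not pass the test in any of these 4 genes, and line 1 and line 2 passed for Klf10 alone on the brightest probe sets. Other probe sets of Klf4 (0.31, limma adjusted p = 0.00867) and Klf9 (0.35, limma adjusted p = 0.0101) also passed between line 2 and line 1. Klf5 ran from line 2 through line 3 and line 1 to ES cells, with no neighbours that passed. Klf13 ran from ES cells through line 3 and line 2 to line 1, again with no neighbours that passed. Klf3 ran from line 3 through line 2 and ES cells to line 1 on its brightest probe set, with no neighbours that passed. Its next brightest probe set had line 1 below ES cells (-0.27) and line 2 above line 1 (0.28). On the brightest probe sets, the range of the line means was widest for Klf10 (0.48 log2 units) and narrowest for Klf9 (0.10) and Klf2 (0.14). The second probe set of Klf4 spanned 0.60 from line 3 to line 2. The median range of the 7 members was 0.29, beside 0.48 over all genes. Over the 8 arrays, which come from only 4 lines, the log2 signals of Klf10 correlated with those of Klf9 at r = 0.95 and of Klf4 at r = 0.86, and those of Klf5 and Klf4 at r = -0.50.

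Several genes had more than 1 probe set, and these did not always move together. Of the 22 probe sets that passed, 1 was called in the mean of the lines against ES cells, 0 in line 1, 5 in line 2 and 0 in line 3, beside 4.83%, 1.35%, 21.3% and 2.45% of 25733 probe sets. Between lines, 4 were called in line 2 against line 1, 6 in line 2 against line 3 and 0 in line 1 against line 3, beside 17.8%, 25.2% and 0.715%. The 1 called in the mean of the lines was the second of Klf4, with 7145 and 6758 in line 1, 8564 and 8633 in line 2 and 6085 and 5297 in line 3, against 5948 and 5961 in ES cells (0.23 ± 0.06, limma adjusted p = 0.0383). The 7 probe sets of Klf9 that passed were all above 0 in line 2 (0.08 to 0.30), and 1 was called. That probe set, the fourth of Klf9 in order of mean signal, gave 1347 and 1364 in line 2, against 1132 and 1064 in ES cells (0.30 ± 0.08, limma adjusted p = 0.0189), whereas the brightest gave 0.08. Klf3 had 6 that passed, 3 above and 3 below 0 in line 2. In line 1 the brightest Klf3 probe set stood at 0.20. The next brightest gave 538 and 548 in line 1, against 679 and 632 in ES cells (-0.27 ± 0.10, limma adjusted p = 0.334). The sign of Klf3 in line 1 against ES cells thus depends on the probe set. In line 2 minus line 1, 4 Klf3 probe sets lay above 0 and 2 below. In line 1 minus line 3 all 6 lay above 0 (0.0085 to 0.42), with 0 called. Both Klf13 probe sets that passed stood above 0 in all 3 lines (0.06 to 0.26), with 0 called. The dimmest Klf5 probe set ranged from 4.76 to 57.5 over the 8 arrays and exceeded the floor in 4, and averaging it with the other 2 turned the sign of Klf5 in line 2 (0.17). The 2 probe sets that did not pass were 1 of Klf3 and 1 of Klf13, under the floor in all 8 arrays.

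**Figure D3:**
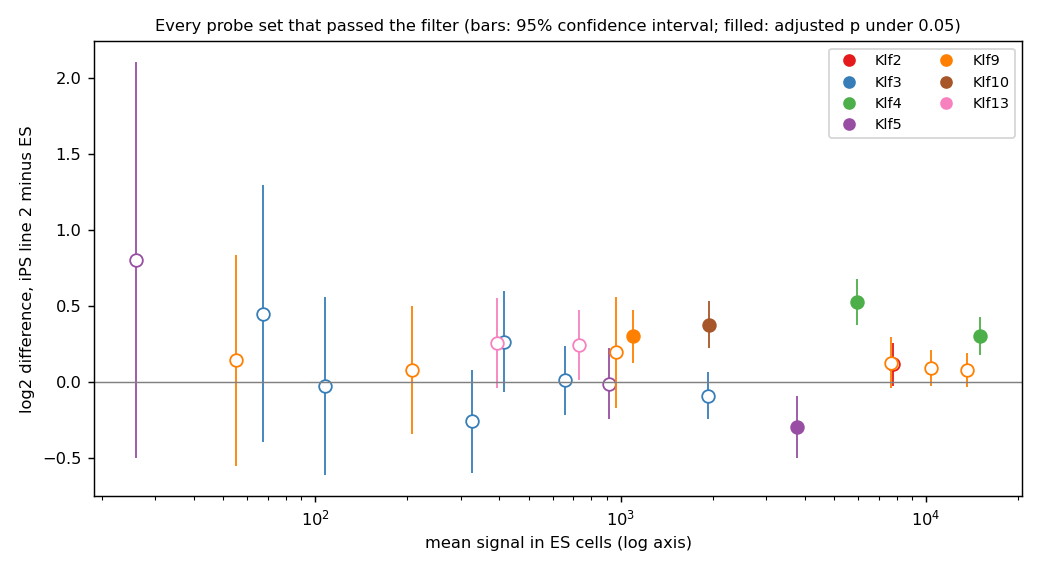
Log2 difference of iPS line 2 from ES cells for the 22 probe sets of the 7 genes that passed the filter, against their mean signal in ES cells on a log axis. Bars are 95% confidence intervals and filled points have an adjusted p under 0.05 over 25733 probe sets: both of Klf4, that of Klf10, 1 of Klf5 and 1 of Klf9. The intervals widen towards low signals.

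For each member with a call, the 3 genes with the most similar pattern were taken by Pearson's r of log2 signals over the 8 arrays, among genes that varied by at least 0.5 log2 units. Zswim5, Homer1 and Gch1 were nearest to Klf10 (r from 0.993 to 0.996, among 9693 candidates). Slf1, Tnfaip3 and Gzf1 were nearest to Klf4 (r from 0.98 to 0.99), Kcnj13, Slco2a1 and Tenm4 to Klf5 (0.92 to 0.96), and Junb, Tnip2 and Otud7b to Klf3 (0.91 to 0.93). The 8 arrays hold 4 lines, so r rests on few independent points, and the highest of so many values is high by selection.

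Of the other Klf genes, 9 of 10 listed were measured, and Klf6 and Klf12 rose in the mean of the iPS lines, with 0 falling (median 0.13, beside 0.02 over all genes; 7.30% of all genes were called). Klf6, an early response gene, gave 1053.5 and 1091 in line 1, 1833 and 1938 in line 2 and 835 and 718 in line 3, against 746 and 782 in ES cells. It rose 2.45-fold in line 2 (1.29 ± 0.09, limma adjusted p = 1.07e-06) and by 0.48 ± 0.09 in line 1, and stood at 0.02 in line 3. Klf12, a repressor that like Klf3 binds CtBP, gave 171 and 259 in line 1, 116 and 139 in line 2 and 167 and 186 in line 3, against 75.5 and 90.0 in ES cells. All 6 iPS arrays were above both ES arrays (0.93 ± 0.19, limma adjusted p = 0.00889), on a probe set whose _s_at ending marks probes shared with other transcripts, and without such probe sets the call was lost. Klf11, the closest relative of Klf10, rose in line 2 (0.43 ± 0.10, limma adjusted p = 0.00823) and stood at -0.02 in line 1 and -0.01 in line 3. Klf1, Klf7, Klf14, Klf15, Klf16 and Klf17 did not pass in any line against ES cells. Without iPS line 2 the mean of Klf6 stood at 0.25 and did not pass, and that of Klf12 was 1.12. Without ES replicate 1, though not without ES replicate 2, fewer of these 9 genes were called in the mean of the lines. Fewer of all genes were called in both cases.

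The Sp factors, the nearest relatives of the Klf family with the same zinc fingers, were measured for 7 of 9 genes. Sp5, a target and effector of Wnt signalling, rose in all 3 lines: its signals were 360.3 and 341.5 in line 1, 401 and 435 in line 2 and 332 and 315 in line 3, against 209 and 210 in ES cells. The mean difference was 0.76 ± 0.10 (limma adjusted p = 0.000776), and it was 0.66 without line 2. Sp1, a general activator at GC boxes, rose in line 2 alone among the 3 lines tested (0.41 ± 0.06, limma adjusted p = 0.000248), with -0.05 in line 1 and 0.01 in line 3. The other Sp genes did not pass against ES cells.

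**Figure D4:**
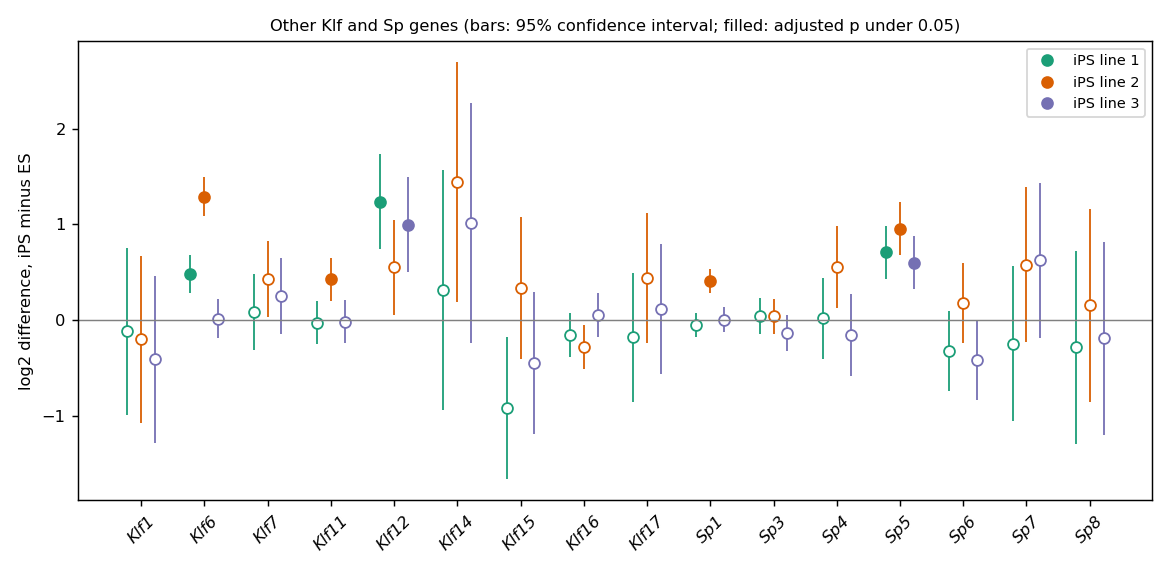
Log2 difference from ES cells of 9 other Klf genes and 7 Sp genes in iPS lines 1, 2 and 3. Bars are 95% confidence intervals and filled points have an adjusted p under 0.05: Klf6 in lines 1 and 2, Klf11 in line 2, Klf12 in lines 1 and 3, Sp1 in line 2 and Sp5 in all 3 lines.

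The pathways that feed these factors were read from lists of their genes in the same fit. Of 10 genes of the LIF and Stat3 input to Klf4, 0 were called in the mean of the lines (7.30% of all genes were), while line 2 had 2 higher and 1 lower, or 3 of 10 beside 26.7% of all genes, which is near that share. Stat3 (0.35 ± 0.09, limma adjusted p = 0.00995) and the Stat3 target Pim1 (0.43 ± 0.07, limma adjusted p = 7e-04) were higher in line 2, and the feedback inhibitor gene Socs3, named after its value was seen, was lower in line 2 (-0.27 ± 0.08, limma adjusted p = 0.0345) and higher in line 1 (0.36 ± 0.08, limma adjusted p = 0.0462). Over all genes in the mean of the lines, 3.03% were lower and 4.27% higher, with a median of 0.02. Of 14 naive pluripotency partners, 4 fell and 0 rose in that comparison (median -0.14). These were Nr0b1, a nuclear receptor gene (-0.76 ± 0.07), Tbx3, which acts beside the Klf factors downstream of LIF (-0.35 ± 0.05), Tcl1, a coactivator of the Akt kinase (-0.36 ± 0.07) and Prdm14 (-0.32 ± 0.07). Without line 2, 3 were lower and 1 higher, beside 3.71% of all genes called in that fit. Leaving out either ES replicate 1 or ES replicate 2 gave fewer calls in this list, as it did over all genes. Of 10 readouts of ERK signalling, which opposes Klf2 and Klf4 in ES cells, 2 rose and 3 fell in the mean of the lines. Over all genes these shares were 4.27% and 3.03%. Egr1 rose by 0.90 and Fos by 0.42, while Dusp6 fell by 0.35, Etv4 by 0.71 and Ier2 by 0.18. Without line 2 only Egr1 of this list was called (0.56), beside 3.71% of all genes. Leaving out either ES array again gave fewer calls, both in this list and over all genes.

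Of 9 measured TGF-beta and Nodal response genes, the setting in which Klf10 was named, 5 rose and 0 fell in the mean of the lines (median 0.32, beside 0.02 over all genes; 7.30% of all genes were called). Lefty1 rose by 1.46, Bhlhe40 by 0.92, Skil by 0.47, Ski by 0.35 and Lefty2 by 0.32. The lines were not alike: Lefty2 was 1188.5 and 1183 in line 2, against 1320.2 and 1375 in ES cells (-0.18, not called), and Bhlhe40 was 388 and 327 in line 3, against 491 and 509 in ES cells, where it fell by 0.48 (limma adjusted p = 0.0192). Skil in line 3 stood at -0.10 and did not pass. Without line 2, Lefty1 (1.25) and Lefty2 (0.57) were called, and Bhlhe40 (0.22), Skil (0.13) and Ski (0.26) were not. In that fit 3.71% of all genes were called. Leaving out either ES array gave fewer calls in the list, all higher, and fewer over all genes. In line 2, 4 rose and 2 fell, beside 16.1% of all genes higher and 10.6% lower. The 2 that fell were Smad7 (-0.31) and Tgif1 (-0.27), both named after their values were seen. Of 9 glucocorticoid and circadian genes, read beside Klf9, 0 were called in the mean of the lines, and Sgk1 was higher in line 2 (0.27). Of 15 cofactors and ubiquitin ligases of Klf proteins, 0 were called in the mean of the lines (2 without iPS line 1 replicate 1 or 2, and 1 without iPS line 2 replicate 2 or iPS line 3 replicate 2), and in line 2 there were 4 higher and 4 lower, or 8 of 15 beside 26.7% of all genes. Smurf2, a ubiquitin ligase gene, was among the higher ones (0.80 ± 0.14, limma adjusted p = 0.00103). Ctbp2, a corepressor partner of Klf3, was among the lower ones (-0.71 ± 0.10, limma adjusted p = 0.000169). Ctbp1, the other CtBP gene in the list, stood at 0.08 in line 2 and was not called. Ctbp1 and Ctbp2 were named after their values were seen.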

How the data were processed

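RNA of 8 samples was hybridised to Affymetrix arrays. The authors deposited 1 linear intensity per probe set and array, computed with MAS5 per the submitters' processing notes. No version, scaling target or detection call was used here. The arrays' trimmed means (2% left out at each end) matched, so signals were used without rescaling. Of 45101 probe sets, 64 were controls, 34945 had 1 gene symbol in the platform annotation, and 932 with several and 9160 with none were left out. A probe set had to exceed 37.1 (the 40th percentile) in at least 2 arrays, and the one with the highest mean stood for its gene, giving 14004 genes. Values were log2(signal + 12), 12 being the 20th percentile, so fold changes understate the change of dim genes. limma 3.58.1 in R 4.3.3 (group-means model of all 8 arrays, 4 residual degrees of freedom, 12.38 after moderation, eBayes with trend, two-sided, Benjamini-Hochberg over all genes) gave differences, SE and 95% intervals for 7 contrasts. Individual probe sets came from the same fit over 25733 probe sets. The fit was tested on simulated data. The array number limits precision. The members and lists were chosen with earlier results of these data known. Named genes were all members, all measured Klf and Sp genes, and list members called or among the 4 smallest adjusted p in the mean contrast. Arrays were not paired by replicate number in the main fit. Deviations of arrays with the same number correlated between -0.0137 and 0.0284, which cannot show whether they were prepared together. Alternatives were scaling, pseudocount, filter, probe set rule, variance trend, replicate block, groups in the fit, line means and leaving out arrays or line 2.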

Additional observations from a re-analysis of the deposited data

Results flagged for a closer look

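For 3 members the difference from ES cells itself differed between iPS lines, by the test of line against line (limma with Benjamini-Hochberg adjustment over 14004 genes, n = 2 arrays per line). Klf10 was higher in line 2 than in line 3 by 0.48 ± 0.07 (SE, adjusted p = 0.000199) and than in line 1 by 0.35 ± 0.07 (adjusted p = 0.00289), the second call being lost under median centring (0.22, adjusted p = 0.0901). Klf4 was higher in line 2 than in line 3 by 0.35 ± 0.06 (adjusted p = 0.000545). Klf3 was lower in line 2 than in line 1, at -0.29 ± 0.07 (adjusted p = 0.00851), a call lost under 3 of 19 alternatives. It was higher in line 1 than in line 3 by 0.31 ± 0.07 (adjusted p = 0.0459), a call lost under 13 of 19. The Klf3 values hold for its brightest probe set, and the next brightest stood at 0.28 for line 2 against line 1. With the mean of its probe sets, Klf3 stood at -0.0081 in line 2 minus line 1. Line 2 is also the line with the beta-actin ratios of 1.74 and 1.79, and the part of that ratio in these values was not tested.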

How the results depend on the processing

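The 49 member changes (7 genes in 7 contrasts) were recomputed 945 times, of which 874 kept direction and side of the threshold, 23 lost a call, 8 gained one and 40 changed sign. The calls of Klf10 and Klf4 in line 2 against line 3, and of Klf10 in line 2 against ES cells, held under all 19 alternatives. Klf4 in line 2 against ES cells was lost only without the variance trend (adjusted p = 0.0554). The cause of the changes below was not tested.

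The number of members called went from 0 to 1 in the mean of the lines with the mean of all probe sets, from 3 to 1 in line 2 against ES cells without the variance trend, and from 2 to 1 in line 2 against line 1 under median centring and without the trend. Under quantile normalization, line 2 against line 3 gained Klf2 (0.21, limma adjusted p = 0.0182) and Klf9 (0.17, limma adjusted p = 0.0161). The number there went from 2 to 4. In line 1 against line 3 it fell to 0 under centring, no filter, no trend, the replicate block (0 members called, Klf3 adjusted p = 0.055) and a fit of only these groups. Under quantile normalization Klf3 lost that call and Klf4 was called instead (0.28, limma adjusted p = 0.0269). The same happened with the mean of all probe sets (Klf4 0.25, limma adjusted p = 0.0402). Leaving out 1 array gave 0 to 1 members in the mean of the lines, 1 to 2 in line 2 against line 1 and 0 to 1 in line 1 against line 3. The replicate block changed no other member's call, and called 1 of the 15 cofactor genes in the mean of the lines. With line means as samples, limma called 0 of 14004 genes (281 at an unadjusted p under 0.05) and 0 members. Over all genes the mean of the lines gave 1022 calls, 502 without line 2, 289 without the trend, and 317 and 421 without ES replicate 1 and 2. Without the trend, line 1, line 2 and line 3 against ES cells gave 47, 2442 and 22 calls, in place of 327, 3738 and 583, line 2 against line 1 gave 1857 in place of 3267, and line 1 against line 3 gave 17 in place of 198. The mean of all probe sets gave 213 and 356 calls in lines 1 and 3 against ES cells, and leaving out 1 of the arrays compared gave 100 to 147 and 180 to 262. Line 1 against line 3 then gave 52 to 98. Without the trend, the mean of the lines gave 1 call among the naive pluripotency partners in place of 4, 2 among the ERK readouts in place of 5, 3 among the TGF-beta genes in place of 5 and 1 among the other Klf genes in place of 2. Signal over background limits the dim probe sets.

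Sign changes, in genes not called except Klf5 in line 2, were as follows. Centring moved Klf2 to -0.0094 (line 2 minus line 1) and 0.024 (line 3 minus ES), Klf3 to -0.11 (line 2 minus line 3), Klf4 to 0.0049 (line 3 minus ES), and Klf9 to -0.0068 (line 2 minus ES), -0.058 (line 2 minus line 1), -0.035 (line 2 minus line 3) and 0.028 (line 3 minus ES). The mean of all probe sets moved Klf13 to 0.017 (line 2 minus line 1), Klf3 to 0.061 (line 2 minus ES) and -0.0185 (mean minus ES), Klf9 to 0.041 (line 3 minus ES), and Klf5 to 0.078, 0.17 and 0.056 (lines 1, 2 and 3 minus ES), 0.10 (mean minus ES), 0.089 (line 2 minus line 1) and 0.11 (line 2 minus line 3). Against ES cells, 1 of the 3 Klf5 probe sets, the dimmest, stood above 0 in each line and in their mean, and 2 stood below. Klf5 stood at 0.0067 in line 2 minus line 3 under quantile normalization. Without line 2 the means of Klf10, Klf2 and Klf9 were -0.032, -0.0087 and -0.0013.

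Leaving out 1 array in turn gave ranges that crossed 0 for 11 changes: Klf13 in iPS line 2 minus iPS line 1 (-0.088 to 0.0798), Klf13 in iPS line 3 minus ES (-0.057 to 0.17), Klf2 in iPS line 1 minus ES (-0.036 to 0.045), Klf2 in iPS line 1 minus iPS line 3 (-0.0485 to 0.102), Klf2 in iPS line 3 minus ES (-0.097 to 0.053), Klf3 in iPS line 2 minus iPS line 3 (-0.007 to 0.049), Klf3 in iPS mean minus ES (-0.0067 to 0.012), Klf4 in iPS line 3 minus ES (-0.085 to 0.0017), Klf5 in iPS line 1 minus iPS line 3 (-0.0197 to 0.24), Klf5 in iPS line 2 minus iPS line 3 (-0.18 to 0.079) and Klf9 in iPS line 3 minus ES (-0.048 to 0.011).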
